A study of Mus musculus with 24 samples.

Results

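Wild type (WT) pulmonary fibroblasts that received recombinant mouse cold-inducible RNA-binding protein together with recombinant mouse transforming growth factor β1 (rmCIRP + rmTGF-β1, 3 libraries) were compared with WT pulmonary fibroblasts that received phosphate-buffered saline (PBS, 3 libraries). These 6 libraries were chosen by their labelled genotype and treatment, from 24 libraries in all, and 16258 of 55291 gene names had enough reads to be tested. The study crossed 4 treatments (PBS, rmCIRP, rmTGF-β1, or both proteins) with genotype (WT or TLR4-/-), so the WT libraries with 1 protein alone, 3 for each, show what each protein contributed to the joint state. All cells came from lungs of C57BL/6 mice aged 4 to 8 weeks, each culture from a pool of 3 to 4 lungs, used at passages 3 to 6 after a night in reduced serum medium. The doses were 1 μg/ml rmCIRP and 2 ng/ml rmTGF-β1, the combination used both at these doses, and cells were lysed at 24 h. Because a group came from pooled lungs and the labels do not say that its replicates were separate pools, the p-values measure only the spread between these libraries, which may be technical. Fewer cells of a type and less RNA per cell cannot be told apart in such bulk libraries.

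CIRP is an RNA-binding protein that, once outside the cell, acts as a danger signal and binds toll-like receptor 4 (TLR4) with its co-receptor MD-2. That receptor acts through MyD88 and TRIF on NF-κB and interferon regulatory factors, which switch on cytokine, chemokine and interferon-stimulated genes. TGF-β1 acts through its serine/threonine kinase receptors on SMAD transcription factors, and in lung fibroblasts it is best known for driving extracellular matrix and contractile genes while restraining inflammation. When 2 such agents meet in one cell, a gene can receive pushes in the same direction, so that they add up, or in opposite directions, so that they cancel.

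Reads counted on genes ranged from 31838121 to 34496919 with PBS and from 29853346 to 33576985 with both proteins in WT cells. Defining fibroblast genes took 2.27 to 2.35% of gene reads with PBS and 2.07 to 2.1% with both proteins. The 13 macrophage markers took 0.268 to 0.291% and 0.224 to 0.252%, with 5 of them higher, 8 lower and none at or under 3 counts in every library, so the cultures were not free of macrophage transcripts. Epithelial markers took 0.000343 to 0.000452% with PBS and 0.000147 to 0.000219% with both proteins, and 5 and 4 of the 10 were at or under 3 counts throughout. Endothelial markers took 0.00246 to 0.00341% and 0.00214 to 0.00264%, with all 8 above 3 counts in some library. Lymphocyte and neutrophil markers took 0.00047 to 0.000565% and 0.000837 to 0.00111%, with 5 and 6 of the 10 at or under 3 counts. Replicate libraries differed by a chi-square per degree of freedom of 2.52 to 7.03 in WT cells. Outside the main comparison 2 libraries stood apart. Replicate 3 labelled TLR4-/- with both proteins differed from its replicates by 45.7 and 31.3, against 6.55 between those. The counts of genes called in the libraries labelled TLR4-/- are given with and without it, and so are some values of single genes. Other values of single genes are given only with it. Replicate 3 labelled TLR4-/- with rmTGF-β1, which enters only the filter, scaling and estimate of the spread shared by all libraries, differed from its replicates by 11.9 and 15.6, against 3.57 between those. Tlr4 mRNA was present in the libraries labelled TLR4-/- at a mean of 903 normalized counts with PBS and 831 after both proteins, against 759 and 679 in WT cells, so the genotype rests on the label.

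The joint treatment changed more genes than it left within the error of 3 libraries. At an adjusted p under 0.1 (edgeR's quasi-likelihood test, Benjamini-Hochberg adjustment over 16258 genes), 3973 genes were higher with both proteins (24.4% of genes tested) and 4708 were lower (29%). Most of these changes were small: 745 genes rose and 536 fell by at least 1 on the log2 scale, and the median over all genes was -0.033 with a median standard error (SE) of 0.086. Without regard to any test, the 3 libraries with both proteins did not overlap the 3 PBS libraries for 9336 genes, or 57.4% of those tested.

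Each log2 change was then split into a share for each protein. The average effect of rmCIRP is the mean of its log2 change without and with rmTGF-β1, the average effect of rmTGF-β1 is defined likewise, and the log2 change with both proteins against PBS is exactly their sum. The rmCIRP effect was called higher in 4194 genes (25.8%) and lower in 4913 (30.2%), and the rmTGF-β1 effect in 2183 (13.4%) and 2562 (15.8%). Of the 3973 genes higher with both proteins, 1930 (48.6%) were called for rmCIRP alone, 543 (13.7%) for rmTGF-β1 alone and 983 (24.7%) for both in the same direction. Of the 4708 lower genes, the same shares were 2610 (55.4%) for rmCIRP alone, 531 (11.3%) for rmTGF-β1 alone and 1130 (24%) for both. Among the 745 genes that rose by at least 1 on the log2 scale, rmCIRP alone was called in 449 (60.3%), rmTGF-β1 alone in 43 (5.77%) and both in 163 (21.9%). These classes were read from the same 12 WT libraries as the change they divide, and are a description of it.

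**Figure D1:**
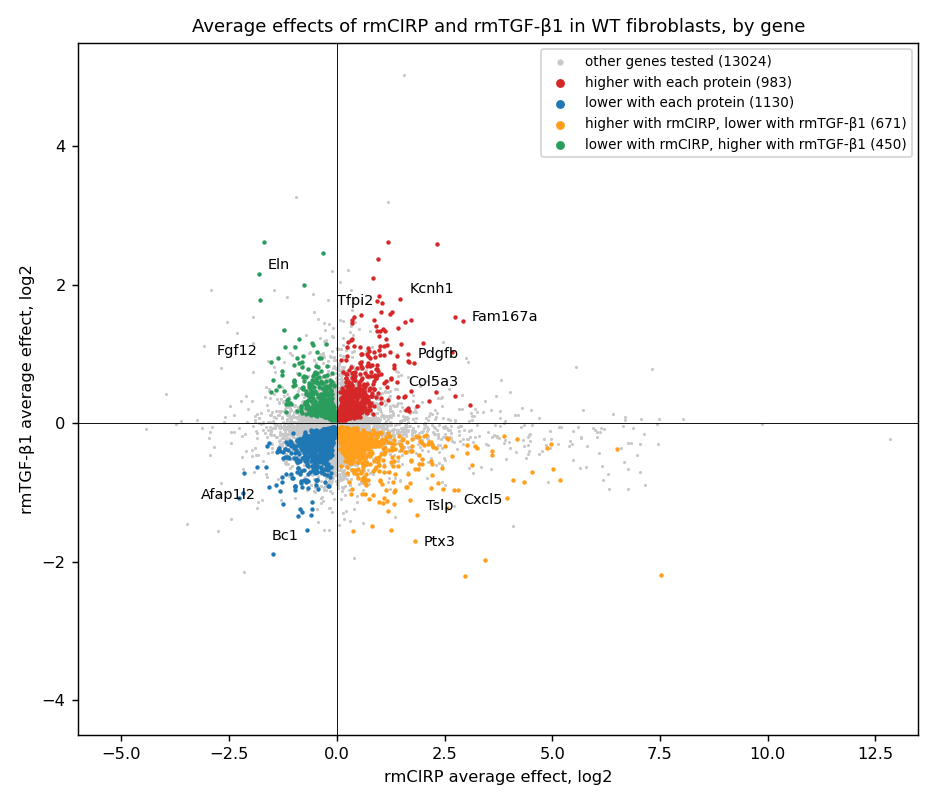
Average effect of rmCIRP (x axis) against average effect of rmTGF-β1 (y axis), both in log2 units, with 1 point for each of the 16258 genes tested in WT fibroblasts, coloured by the class of genes called in both effects. The points spread farther along the rmCIRP axis, on which 641 genes were called higher and 318 lower by at least 1, than along the rmTGF-β1 axis, on which 106 and 57 were.

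Most of the 12 largest rises were in genes of cytokines, chemokines and antiviral proteins. Il12b, a subunit of interleukin-12, had no reads in any PBS library and 786, 759 and 812 normalized counts (reads divided by the library's size factor) with both proteins, at least 262-fold above the level of 3 counts. Il1b, the precursor of interleukin-1β, read 15.4, 14 and 21.9 with PBS and 16238, 14685 and 16777 after both proteins. The groups lay far apart, and the rise was 9.85 ± 0.16 on the log2 scale (± SE, adjusted p = 7e-22). Nos2, the inducible nitric oxide synthase, went from 10.6, 7.99 and 12.5 to 1381, 1367 and 1641 (7.12 ± 0.18 log2, adjusted p = 4.9e-18). Il1a (7.54 ± 0.21), the chemokines Ccl5 (8.11 ± 0.16) and Cxcl10 (7.17 ± 0.45), and the antiviral genes Rsad2 (6.80 ± 0.42) and Ifi205 (6.78 ± 0.46) rose as well, with the near copies Ifit3 and Ifit3b, between which reads may have been split. The other 2 were Ms4a4c, a membrane protein of the MS4A family, and F830016B08Rik, which had at most 1 read in a PBS library and were at least 42.4-fold and 45.2-fold above the level of 3 counts with both proteins. For Il1b, Il1a, Ccl5 and Nos2 the average effect of rmTGF-β1 lay between -0.011 and 0.069 log2 and was not called.

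Of all genes tested, 24.4% were called higher with both proteins and 29% lower. By list, 17 of 19 cytokine genes tested rose with both proteins and none fell, with a median of 3.14 log2 against -0.033 for all genes. The exceptions, not called, were Il15 (0.055 ± 0.13) and Il33 (0.47 ± 0.46), cytokines of the lymphoid and type 2 responses. All 17 chemokines for neutrophils and monocytes rose, with a median of 1.88, although the median of their average rmCIRP effects was 2.72. For 9 of the 17 the rmTGF-β1 effect was called lower, as it was for 15.8% of all genes. All 25 interferon-stimulated genes rose (median 4.95), and rmTGF-β1 was called lower for 3 of them, among them the GTPase gene Gbp2. Isg15, a ubiquitin-like modifier, rose from 191, 178 and 138 to 6321, 5343 and 6678. Of 16 NF-κB subunits and feedback genes, 14 rose and 1 fell (median 0.844), and rmTGF-β1 was called lower in 10 of these 16. Nfkbia, the inhibitor that NF-κB itself induces, rose by 1.30 ± 0.099, made up of 1.53 ± 0.07 from rmCIRP and -0.22 ± 0.069 from rmTGF-β1. All these lists, like every list here, were chosen with earlier results of these data known.

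The receptor complex moved less than its targets. In the 19 genes of the TLR4 pathway, 7 rose, 4 fell and 8 were not called, with a median of 0.101. Of all genes tested, 24.4% rose and 29% fell. Tlr4 itself fell by 0.17 ± 0.058 log2 (adjusted p = 0.02), a call that was lost without WT PBS replicate 2 (log2 change -0.109, adjusted p = 0.18) and with no filter on low counts (-0.15, adjusted p = 0.12). Ly96, which encodes MD-2, read 277, 292 and 277 with PBS, 337, 360.1 and 356 after rmCIRP, 253, 281 and 240 after rmTGF-β1 and 281, 270.4 and 283 after both. The libraries with both proteins overlapped those with PBS, while those with rmCIRP alone were above every other WT library. Cd14, the accessory receptor that hands ligand to TLR4 and is also a macrophage marker, rose by 1.71 ± 0.11 after both proteins. The summed macrophage marker reads given above did not rise with it, and their part in the cytokine and chemokine results was not tested.

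The largest falls were smaller than the largest rises. Rab3il1, a Rab exchange factor, fell from 204, 278 and 245 to 35.7, 20.9 and 22.2 (-3.19 ± 0.19 log2, adjusted p = 1.1e-11). Alox5, the 5-lipoxygenase of leukotriene synthesis, fell from 94.3, 116 and 109 to 29.6, 25.5 and 21.1, and the myeloid receptors Cd300lb (-2.59 ± 0.17) and Cd300a (-2.26 ± 0.21) fell as well. In these 4 genes the rmCIRP effect was called lower. The rmTGF-β1 effect, between -0.217 and 0.115 log2, was not called in any of them. For Sorbs2, a scaffold of stress fibres, both effects were called lower and that of rmTGF-β1 was the larger. The fall of Sorbs2, 1.94 ± 0.14 log2, comprised -1.33 ± 0.097 from rmTGF-β1 and -0.61 ± 0.098 from rmCIRP. Dhrs3, a retinaldehyde reductase, fell from 983, 1004 and 1095 to 277, 265 and 260.4.

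Contractile genes were lower in the joint state. Of 16 smooth muscle and stress fibre genes, 14 fell and none rose, with a median of -0.503 log2, where 29% of all genes were lower. Lmod1, which nucleates actin filaments in smooth muscle, read 9199, 8324 and 9319 with PBS and 3593, 3632 and 3485 after both proteins (-1.33 ± 0.20, adjusted p = 8.1e-06). Des, the intermediate filament desmin, fell by 1.03 ± 0.092, and Cnn1, calponin, by 0.66 ± 0.13. Acta2, smooth muscle actin and the usual sign of a myofibroblast, fell from 318757, 295742 and 312147 to 247464, 258190.3 and 244223 (-0.31 ± 0.10, adjusted p = 0.014). For 15 of the 16 genes the rmCIRP effect was called lower, and the rmTGF-β1 effect was called higher in 1 (Smtn, smoothelin) and lower in 1 (Synpo2, synaptopodin-2, a call lost in 8 of the 12 fits without 1 WT library, with adjusted p up to 0.18). Of 22 cell cycle genes 15 fell, with a median of -0.263, and 2 rose: Cdkn1a (0.094 ± 0.036, not called without WT both replicate 2, at 0.0774, or 3, at 0.0817), an inhibitor of cyclin-dependent kinases, and Mcm6, a subunit of the replicative helicase, whose rise of 0.53 ± 0.067 came with an rmTGF-β1 effect of 0.58 ± 0.047.

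Matrix genes were called in both directions, at shares near the 24.4% of all genes that were higher and the 29% that were lower for the lists of other matrix and of collagen crosslinking. Of 11 fibrillar collagen genes, 4 rose, 5 fell and 2 were not called (median -0.187), with the rmCIRP effect lower in 6 and the rmTGF-β1 effect higher in 6. Of 27 other matrix genes, 8 rose and 9 fell (median 0.010), with 17 lower for rmCIRP and 10 higher for rmTGF-β1, against 30.2% and 13.4% of all genes. Among 14 genes of collagen crosslinking, 4 rose and 4 fell (median -0.030), and Lox, lysyl oxidase, went from 55555, 58493 and 55785 to 83238, 93209 and 89697 with an rmTGF-β1 effect of 0.63 ± 0.051 and an rmCIRP effect of 0.013 ± 0.051 that was not called. Postn, periostin of the fibrotic matrix, rose by 0.23 ± 0.071. Among 14 metalloproteinases, 6 rose and 6 fell (median -0.019), and the collagenase gene Mmp13 rose from 4604, 5482 and 4323 to 31417, 30489.8 and 32073 (2.70 ± 0.23, adjusted p = 3.7e-09). Timp1, a metalloproteinase inhibitor, rose by 0.56 ± 0.074, and Serpinb2, an inhibitor of plasminogen activators, by 3.38 ± 0.43.

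Several ligand genes changed with rmTGF-β1 and were carried by it in the joint state. In the Wnt list 8 of 14 genes rose and 5 fell (median 0.765), against 24.4% and 29% of all genes. The rmTGF-β1 effect was called higher in 8 of the 14 and lower in 3, against 13.4% and 15.8% of all genes. The rmCIRP effect was called higher in 2 and lower in 4, against 25.8% and 30.2%, and 2 of the 14 were called higher in both effects. Wnt2, a lung mesenchyme ligand, read 238, 275 and 216 with PBS, 171, 178 and 210.4 after rmCIRP, 476, 555 and 429 after rmTGF-β1 and 536, 537 and 541 after both proteins. The libraries with rmTGF-β1, alone or joined with rmCIRP, were thus above every library without it (1.14 ± 0.20 for both against PBS, adjusted p = 5.5e-05). Pdgfc, a fibroblast mitogen, behaved in the same way, with means of 849, 780.4, 1621 and 1809 in that order of treatments. Bmp4, a bone morphogenetic protein, ran the other way, from a mean of 593 with PBS and 643 with rmCIRP to 317 and 266 with rmTGF-β1 and both (-1.16 ± 0.10, adjusted p = 4.1e-09). Hgf (-0.60 ± 0.13) and Fgf10 (-0.63 ± 0.11), growth factors for the epithelium, and Prrx1 (-0.66 ± 0.083), a transcription factor of mesenchyme, fell with rmTGF-β1 effects of -0.58, -0.53 and -0.58. Tgfb3, a TGF-β isoform, fell by 1.19 ± 0.13 with an rmCIRP effect of -1.27.

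**Figure D2:**
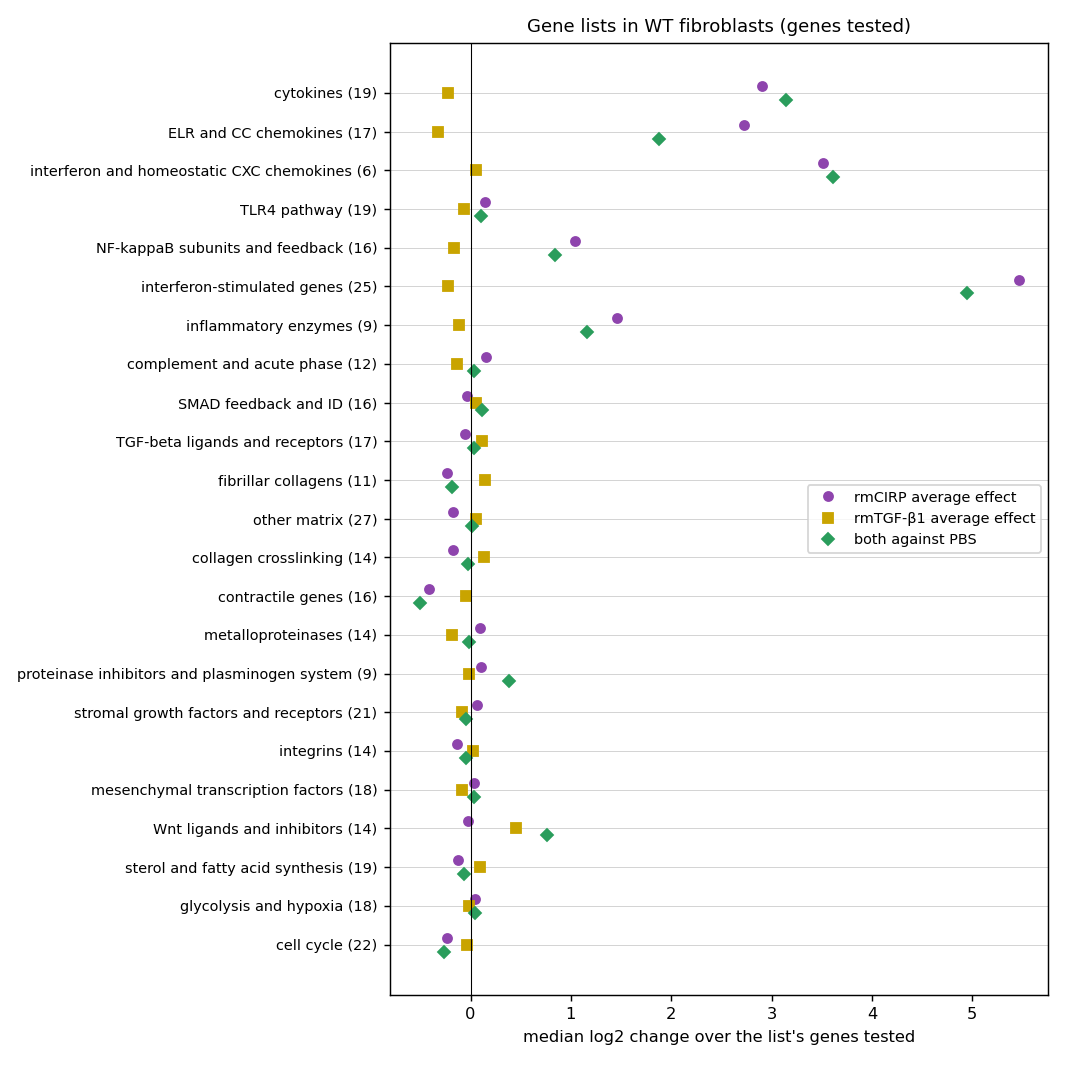
Median log2 change of each of 23 gene lists in WT fibroblasts (x axis, log2 units; lists on the y axis): both proteins against PBS, the average effect of rmCIRP and the average effect of rmTGF-β1, each point being a median over the tested genes of the list. Interferon-stimulated genes (4.95), interferon and homeostatic chemokines (3.61) and cytokines (3.14) lie far to the right for both proteins, and contractile genes lie at -0.503. The rmTGF-β1 medians lie between -0.322 (chemokines for neutrophils and monocytes) and 0.45 (Wnt list).

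Of the remaining lists, those of inflammatory enzymes and of interferon and homeostatic chemokines had medians of 1.16 and 3.61, and the medians of the others lay between -0.067 and 0.383. SMAD feedback and ID genes rose in 8 of 16 and fell in 6 (median 0.115): Skil (0.50 ± 0.044) and Pmepa1 (0.54 ± 0.044), brakes on TGF-β signaling, rose, while the ID genes, inhibitors of differentiation that follow BMP signaling, fell. Against 24.4% of all genes higher and 29% lower, TGF-β ligands and receptors rose in 5 of 17 and fell in 6 (median 0.033). Growth factors and their receptors rose in 8 of 21 and fell in 9 (median -0.041), integrins rose in 5 of 14 and fell in 6 (median -0.045), and mesenchymal transcription factors rose in 7 of 18 and fell in 7 (median 0.031). Glycolysis and hypoxia genes rose in 7 of 18 and fell in 2 (median 0.043), and sterol and fatty acid synthesis genes rose in 3 of 19 and fell in 7 (median -0.067). Inflammatory enzymes rose in 8 of 9 and fell in 1, and of the chemokines of the interferon and homeostatic groups 4 of 6 rose and 2 fell. Complement and acute phase genes rose in 4 of 12 and fell in 1 (median 0.034), and proteinase inhibitors and the plasminogen system rose in 5 of 9 and fell in 1 (median 0.383).

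On 983 genes the 2 proteins added up in the upward direction, that is, both average effects were called higher (6.05% of genes tested). The median change of these genes with both proteins was 0.373, and in 96 of them both effects reached 0.5. They included growth factors and their kin that stromal cells secrete. Inhba, the activin A subunit, read 64557, 71275 and 59865 with PBS, 129283, 119361 and 133545 after rmCIRP, 108423, 104872 and 106687 after rmTGF-β1 and 184899, 202496 and 200813 after both proteins. Every library with both proteins exceeded every library with 1 protein, and those exceeded every PBS library. Il11, a fibrogenic cytokine of the interleukin-6 family, went from 31084, 37891 and 30479.6 with PBS through 61034, 56351 and 67619 after rmCIRP and 56853, 53644 and 52538 with rmTGF-β1 to 101834, 95414 and 100119. Tgfb1, the gene for the added growth factor itself, read 3899, 4310 and 3817, 5773, 6127 and 6282, 5942, 5553 and 5654 and 8313, 8285 and 8185 in the same order, again in 3 steps without overlap apart from the libraries with 1 protein, which overlapped each other. Its effects were 0.56 ± 0.055 for rmCIRP and 0.48 ± 0.055 for rmTGF-β1.

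Pdgfb, a mitogen for fibroblasts and pericytes, rose from 159.8, 195 and 199.8 with PBS to 566, 575 and 563 after rmCIRP, 307, 404 and 367 after rmTGF-β1 and 1124, 1195 and 1196 after both proteins. Its mean with both, 1172, lay above the 742 that the 2 separate increases in normalized counts would give together, and near the product of the separate folds, 6.31-fold measured against 5.95-fold. Multiplying folds is the same as adding log2 changes. Departure from a sum on the log2 scale, the interaction, was above 0 in 644 of the 983 genes, with a median of 0.033. Over all genes it was above 0 in 8452 of 16258, with a median of 0.0055. It was called in 4 of the 983 (Mmp9, Cadm1, Iqgap2 and Slc39a8). An unadjusted interaction p under 0.05 was found in 97 of the 983 (9.87%), against 5.64% of all genes. The share was 5.66% where both effects were called lower, 10.1% where rmCIRP was higher and rmTGF-β1 lower, and 16.2% in the reverse case. The median SE of the interaction was 0.0768 in the 983 genes and 0.121 over all genes.

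The 8 genes with the largest smaller effect in this class were Fam167a, Kcnh1, Bmp2, Tfpi2, Flrt3, Tnfaip6, Shisa3 and D630003M21Rik. Kcnh1, a voltage-gated potassium channel, read 52.9, 80.9 and 64.5 with PBS and 640.3, 651 and 638 after both proteins, with 146, 159.5 and 188 and 202, 221 and 196 for rmCIRP and rmTGF-β1 alone. Bmp2, a bone morphogenetic protein, went from a mean of 102 to 856, and Tfpi2, an inhibitor of serine proteases in matrix, from 525 to 3870.1. Tnfaip6, a hyaluronan-binding protein of inflamed tissue, reached 486, 500.2 and 474 after both proteins from 68.3, 85.9 and 79.1 with PBS, although rmCIRP alone gave 153, 125 and 140.3 and rmTGF-β1 alone 106, 99 and 123. Its interaction of 1.31 ± 0.47 log2 was not called (adjusted p = 0.73). Of matrix genes the class held Col5a3, a minor fibrillar collagen that rose from 5753, 6328 and 5069 to 24041, 22423 and 22519, and Col27a1, with a mean of 445 with PBS and 1398 after both proteins. Vegfa, the endothelial growth factor, and the transcription factor Runx1 belonged here too, with log2 changes of 0.82 ± 0.099 and 0.89 ± 0.059.

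**Figure D3:**
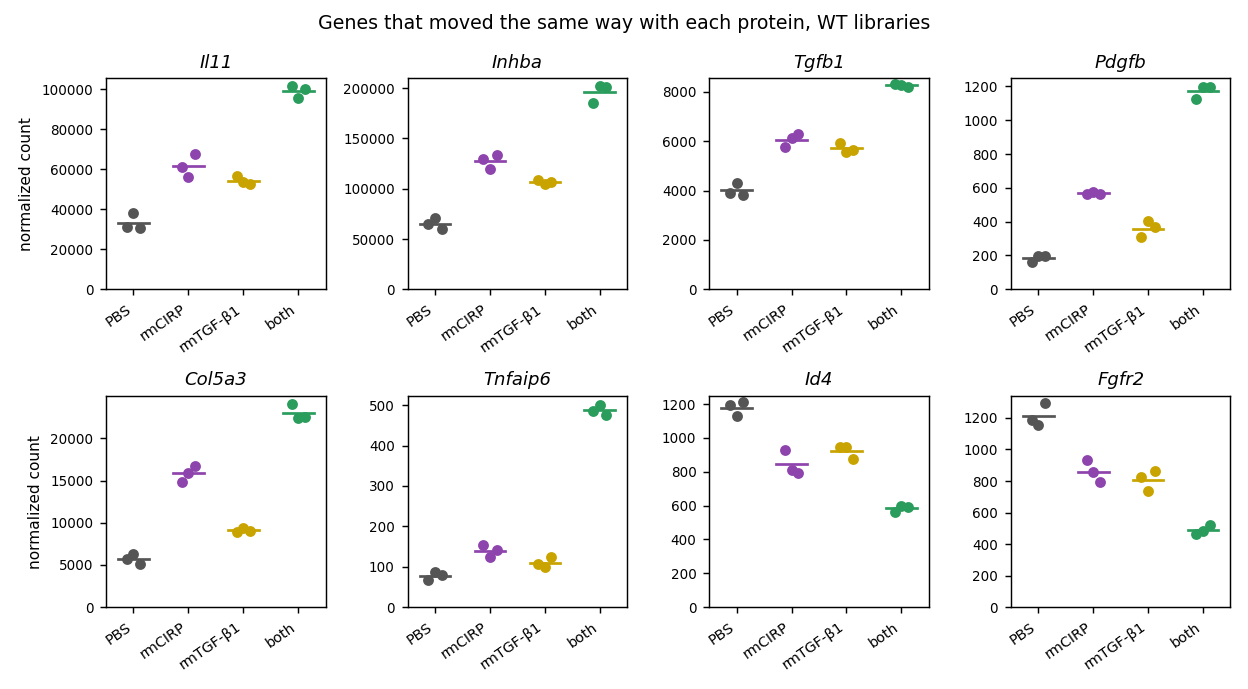
Normalized counts (y axis, linear from 0) of 8 genes on which rmCIRP and rmTGF-β1 pushed in the same direction, in WT fibroblasts with PBS, rmCIRP, rmTGF-β1 or both (x axis); points are the 3 libraries and the line is their mean. In Il11, Inhba, Tgfb1, Pdgfb, Col5a3 and Tnfaip6 the libraries with both proteins are the highest, and in Id4 and Fgfr2 they are the lowest.

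Both effects were called lower in 1130 genes (6.95%), with a median change of -0.496 with both proteins. Id4, which inhibits basic helix-loop-helix factors, read 1192, 1128 and 1214 with PBS, 932, 811 and 795 after rmCIRP, 944, 948 and 877 after rmTGF-β1 and 559.8, 599 and 591 after both proteins. The libraries with both were below every other WT library. Fgfr2, a receptor for fibroblast growth factors, fell from 1186, 1155 and 1296 to 467, 481 and 519, with means of 859 for rmCIRP and 807 for rmTGF-β1 alone. The 8 genes with the largest smaller effect were Afap1l2, Rcan2, Eps8, Inhbb, Peg3, Meox2, Tdrkh and Bc1. Afap1l2, an actin filament adaptor, fell from 881, 859.6 and 985 to 212, 174 and 173, and Peg3, an imprinted zinc finger gene, from 4655, 4192 and 4968 to 1428, 1639 and 1535. Inhbb, the subunit of activin B, fell from 359.9, 421 and 416 to 103, 74.3 and 111 after both proteins, in the opposite direction to Inhba. Bc1, a noncoding RNA that exists in many near copies, had an rmCIRP effect of -0.68 ± 0.32 that DESeq2 did not call (adjusted p = 0.12) and that was lost in 7 of 12 fits without 1 WT library, with values down to -0.461 (without WT rmTGF-β1 replicate 1, adjusted p = 0.27).

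In 671 genes (4.13%) the proteins opposed each other with rmCIRP higher and rmTGF-β1 lower. With both proteins, 282 of these were higher than with PBS, 44 were lower and 345 were not called, and the median change was 0.088. Among the 93 in which both effects reached 0.5, 44 were higher, none was lower and 49 were not called, and 52 stayed within 0.5 log2 of PBS. Ptx3, a pentraxin of innate immunity that is made at sites of inflammation, is the plainest case. It read 1238, 1858 and 1715 with PBS, 7456, 6598 and 6734 after rmCIRP, 687, 555 and 595 after rmTGF-β1 and 1678, 1712 and 1836 after both proteins. The libraries with both lay inside the range of those with PBS, while the single proteins were above and below them without overlap. The effects were 1.81 ± 0.12 for rmCIRP and -1.70 ± 0.12 for rmTGF-β1, and both against PBS gave 0.11 ± 0.16 (adjusted p = 0.61). Tslp, an epithelial and stromal cytokine of type 2 immunity, went from 382, 613 and 482 with PBS to 2104, 1985 and 2237 after rmCIRP, 291, 160 and 244 after rmTGF-β1 and 696, 653 and 787 after both. Its remaining rise of 0.52 ± 0.21 (adjusted p = 0.047) was not called by DESeq2 (adjusted p = 0.22), nor without WT PBS replicate 1 (0.395, adjusted p = 0.18) or 3 (0.505, adjusted p = 0.11), nor without WT both replicate 3 (0.442, adjusted p = 0.15).

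In other genes of this class rmTGF-β1 took back a part of the rmCIRP rise. Cxcl5, a neutrophil chemokine, read 638, 1099 and 839.9 with PBS, 7711, 6096 and 6868 after rmCIRP, 613, 422 and 578 after rmTGF-β1 and 2788, 2752 and 3243 after both proteins. It remained higher than with PBS, by 1.76 ± 0.24 (adjusted p = 2.6e-06). Cxcl1, another neutrophil chemokine, reached 17061, 17052 and 17921 after rmCIRP and 8834, 8651 and 9437 after both, from 639, 1188 and 950.3. Ccl20, which draws cells bearing CCR6, reached 368, 372 and 289 with rmCIRP but 119, 108 and 125 after both, from 28.9, 31.9 and 35.4 with PBS. Mmp3, stromelysin-1, read 5055, 7841 and 6276, 33151, 27579.9 and 39147, 6011, 4271 and 4782 and 20249, 17894 and 21940.3 for PBS, rmCIRP, rmTGF-β1 and both. For the cytokines Tnf and Csf3 the rmTGF-β1 effect was -0.30 ± 0.087 and -0.45 ± 0.09, and with both proteins they were still 4.67 ± 0.12 and 3.14 ± 0.12 above PBS. By contrast Dio2, which activates thyroid hormone, ended near its start, with 3179, 4594 and 3270.3 with PBS and 3295, 2942 and 4228 after both, against 8823, 7064 and 9542 after rmCIRP and 2309, 1331 and 1811 with rmTGF-β1.

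The promoters of 3 of these genes are shown because they hold a κB or an AP-1 motif, sequences bound by transcription factors downstream of TLR4. Each runs 5′ to 3′ on the + strand from 250 bases before to 50 after the RefSeq start (build GRCm38.p6), in lower case with the motif in capitals: a κB motif in Ptx3 (chr3:66219637-66219936, where overlapping matches form one run at the start site) and in Ccl20 (chr1:83116516-83116815, first base at -80), and an AP-1 motif, TGANTCA, in Sele (chr1:164047984-164048283, first base at -73).
Ptx3: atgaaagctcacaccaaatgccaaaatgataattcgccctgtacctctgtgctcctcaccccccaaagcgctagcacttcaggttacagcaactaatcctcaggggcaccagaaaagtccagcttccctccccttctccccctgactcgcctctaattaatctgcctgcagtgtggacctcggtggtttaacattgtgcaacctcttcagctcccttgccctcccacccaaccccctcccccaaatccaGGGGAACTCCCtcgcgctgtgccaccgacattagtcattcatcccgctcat
Ccl20: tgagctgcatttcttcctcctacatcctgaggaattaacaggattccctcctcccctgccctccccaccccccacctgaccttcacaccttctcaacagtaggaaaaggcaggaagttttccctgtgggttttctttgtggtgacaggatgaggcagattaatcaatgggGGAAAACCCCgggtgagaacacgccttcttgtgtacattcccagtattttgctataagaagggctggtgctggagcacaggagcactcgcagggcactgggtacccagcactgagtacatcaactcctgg
Sele: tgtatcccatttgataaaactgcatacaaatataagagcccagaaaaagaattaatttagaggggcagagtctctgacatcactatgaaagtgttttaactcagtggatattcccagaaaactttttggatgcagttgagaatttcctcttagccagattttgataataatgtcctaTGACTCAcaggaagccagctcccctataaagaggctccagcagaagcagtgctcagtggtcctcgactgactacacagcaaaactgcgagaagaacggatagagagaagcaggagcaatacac
Sele is E-selectin, an adhesion molecule for leukocytes, and read 29.8, 32.9 and 35.4 with PBS, 124, 113 and 162 after rmCIRP, 19.2, 14 and 22.8 after rmTGF-β1 and 42.8, 41.8 and 65.4 after both proteins. Both strands of 1 promoter were searched for each of 387 of the 671 genes, those with a single RefSeq entry. Of the genes with the largest smaller effect in this class, Dio2, Akr1c18 and U90926 were searched too and held neither a κB nor an AP-1 motif. A κB motif was in 65 (16.8%) and an AP-1 motif in 38 (9.82%), and over all 9296 tested genes with a single entry the shares were 10.2% and 5.19%. The SMAD box CAGAC was in 45.5% and over all genes in 48.5%, and a CArG box in 0.517% and 1.3%. In the class that added up in the upward direction (608 genes searched) the shares were 8.22% for κB, 5.43% for AP-1, 46.5% for the SMAD box and 0.822% for CArG, and in the downward class (651 genes) 11.4%, 3.53%, 46.5% and 1.69%. These matches are letters in a window and say nothing of binding.

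In 450 genes (2.77%) the opposition ran the other way, with rmCIRP lower and rmTGF-β1 higher, and matrix genes were among them. With both proteins, 61 of these were higher than with PBS, 117 were lower and 272 were not called, with a median of -0.025. Among the 47 in which both effects reached 0.5, 38 were not called and 38 stayed within 0.5 log2 of PBS. Of their promoters 240 were searched, with shares of 10.8% for κB, 3.75% for AP-1, 48.8% for the SMAD box and 1.67% for CArG. Eln, elastin, read 1089.5, 1326 and 1502 with PBS, 395, 257 and 272 after rmCIRP, 4383, 5134 and 4811 after rmTGF-β1 and 1749, 1665 and 1599 after both proteins. The libraries with both stood just above those with PBS, far from either single treatment, and 0.35 ± 0.24 log2 was not called (adjusted p = 0.25). Tgfbi, a TGF-β-induced matrix protein, read 778, 839.6 and 779 with PBS and 874, 821 and 859 after both, against 493, 405 and 395 with rmCIRP. Col1a1, the main chain of type I collagen, fell to 198032, 188839.7 and 177896 with rmCIRP and reached 272685, 290549.5 and 285473 with rmTGF-β1, and with both it read 228624, 221512 and 223857 against 243961, 246260.2 and 236246 with PBS, a change of -0.12 ± 0.079 that was not called (adjusted p = 0.24).

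The balance did not always fall at the PBS level. Col15a1, a basement membrane collagen, read 1089.5, 1273 and 1194 with PBS and 781, 736 and 848 after both, a fall of 0.60 ± 0.096 (adjusted p = 2.4e-05), and Col6a3, a microfibrillar collagen, fell by 0.46 ± 0.062. Timp3, an inhibitor of metalloproteinases bound to matrix, instead rose from 53272, 55262 and 49185 to 67041, 71274 and 68709 (0.38 ± 0.072, adjusted p = 0.00014), and Col11a1, a fibrillar collagen, rose by 0.46 ± 0.089. Tgfb2 showed near equality, with 479, 399 and 483 with PBS and 409, 438 and 411 after both. The other genes with the largest smaller effect were Klhl30, Fgf12, Spns2, Gjb5, Pth1r, Rxfp3 and Gm10824. Gjb5, a connexin, read 245, 213 and 225 with PBS, 127, 116 and 127 after rmCIRP, 327, 348 and 333 after rmTGF-β1 and 217, 222 and 218 after both, and Pth1r, the parathyroid hormone receptor, read 348, 322 and 349.7, 162, 203 and 199, 493, 583 and 480.1 and 275, 356 and 311 in that order.

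**Figure D4:**
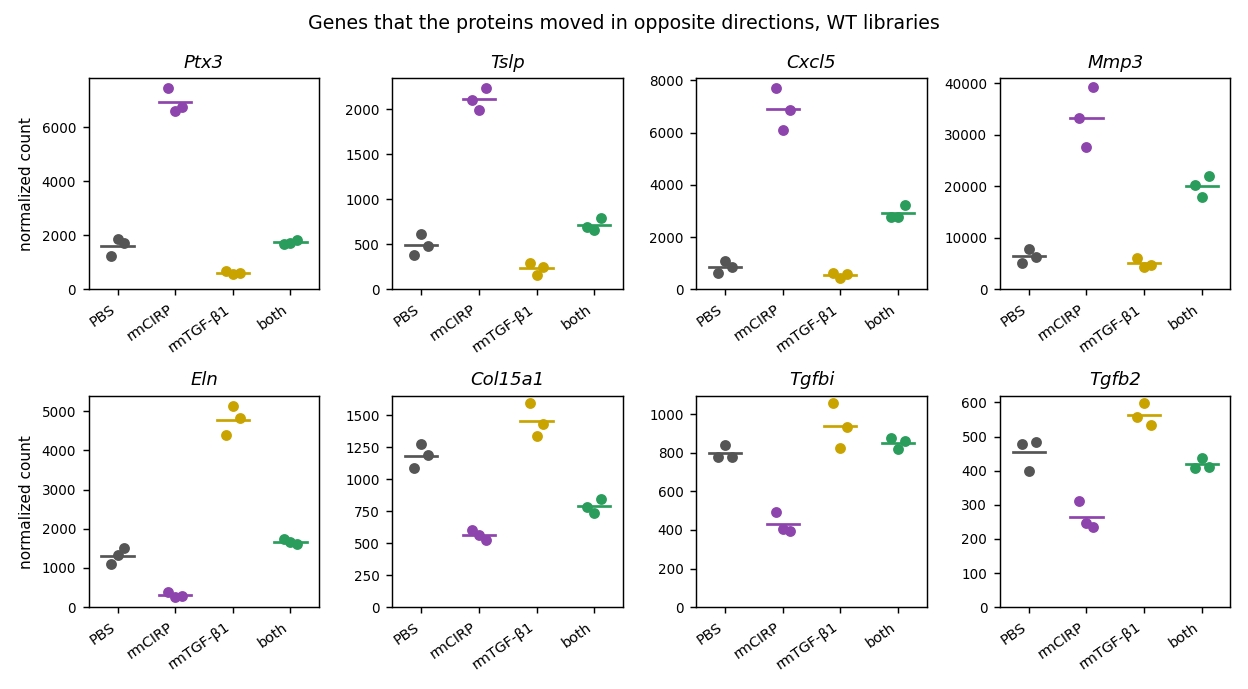
Normalized counts (y axis, linear from 0) of 8 genes on which rmCIRP and rmTGF-β1 pushed in opposite directions, in WT fibroblasts with PBS, rmCIRP, rmTGF-β1 or both (x axis); points are the 3 libraries and the line is their mean. In Ptx3, Tgfbi and Tgfb2 the libraries with both overlap those with PBS, whereas in Cxcl5 and Mmp3 they are higher and in Col15a1 they are lower.

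The interaction tests whether the log2 changes of the 2 proteins simply sum, and its contrast is orthogonal to those of the average effects. It was called in 8 of 16258 genes (0.0492%), 6 with a level above the sum and 2 below, and 917 genes had an unadjusted p under 0.05, with a median SE of 0.12 log2 for the interaction. DESeq2 called 37, a model of the 12 WT libraries 125, and a model with no filter on low counts 198, while leaving out 1 WT library gave 7 (rmCIRP replicate 1) or from 2 (rmCIRP replicate 3) to 5 (PBS replicate 2). Mmp9, gelatinase B, had the lowest adjusted p. It read 1295, 1692 and 1537 with PBS, 3128, 3202 and 3309 after rmCIRP, 1355, 986 and 1259 after rmTGF-β1 and 5284, 4984 and 5564 after both proteins, so that the libraries with rmTGF-β1 alone overlapped those with PBS, with a called fall (-0.33 ± 0.10, adjusted p = 0.042), and the libraries with both lay above those with rmCIRP. The interaction was 1.04 ± 0.14 (adjusted p = 0.0023), and 3.48-fold was measured where 1.69-fold was the product of the separate folds. Its average rmTGF-β1 effect of 0.19 was lost without WT PBS replicate 1 (0.153, adjusted p = 0.11), WT rmTGF-β1 replicate 1 (0.139, adjusted p = 0.17) or 3 (0.166, adjusted p = 0.13), or WT both replicate 3 (0.167, adjusted p = 0.12).

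Iqgap2, a scaffold of the actin cytoskeleton, read 299, 362 and 362 with PBS, 361, 327 and 371 after rmCIRP, 381, 299 and 335 after rmTGF-β1 and 609.7, 591 and 672 after both. The 3 groups without the combination overlapped, and those with it were above them all (interaction 0.83 ± 0.13, adjusted p = 0.014). Cadm1, a cell adhesion molecule, read 62.6, 44.9 and 53.1 with PBS and 183, 157 and 144 after both, against 34, 50.4 and 33.6 after rmCIRP and 63.5, 76 and 74.4 with rmTGF-β1 (interaction 1.62 ± 0.26, adjusted p = 0.014), a call lost without WT PBS replicate 1 (1.48, adjusted p = 0.11) or WT rmCIRP replicate 3 (1.51, adjusted p = 0.11). Mmp8, the neutrophil-type collagenase, went the other way, with 6568, 6317 and 6571 with rmCIRP but 4002, 4186 and 4316 after both, 2883, 3733 and 3392 with PBS and 3518, 3097 and 2961 with rmTGF-β1 (interaction -0.57 ± 0.1, adjusted p = 0.038), a call lost without WT rmCIRP replicate 3 (-0.569, adjusted p = 0.11), WT rmTGF-β1 replicate 1 (-0.498, adjusted p = 0.13), WT both replicate 1 (-0.553, adjusted p = 0.13) or 2 (-0.575, adjusted p = 0.11), or WT PBS replicate 3 (-0.587, adjusted p = 0.1).

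Mmp9, Cadm1, Iqgap2 and Slc39a8 belonged by their average effects to the genes that added up in the upward direction, although Cadm1 was lower after rmCIRP alone (-0.45 ± 0.20, adjusted p = 0.091) and neither protein alone was called for Iqgap2 or Slc39a8. The last 4 calls rested on less. Iglon5 (0.76 ± 0.14, adjusted p = 0.068), an adhesion molecule, Arhgap29 (0.37 ± 0.067, adjusted p = 0.057), Slc39a8 (0.57 ± 0.11, adjusted p = 0.094), a zinc transporter, and Ripk2 (-0.42 ± 0.083, adjusted p = 0.094), a kinase of NOD receptor signaling, lost the call in 10 to 12 of the 12 fits without 1 WT library, Ripk2 in all 12, with adjusted p up to 0.35 (Slc39a8, without WT both replicate 1). Ripk2 read 3019, 3096 and 3029.8 with PBS, 3791, 3464 and 3547 after rmCIRP, 3317, 3113 and 3071 after rmTGF-β1 and 2759, 2784 and 2848 after both proteins, lowest in the libraries with both.

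**Figure D5:**
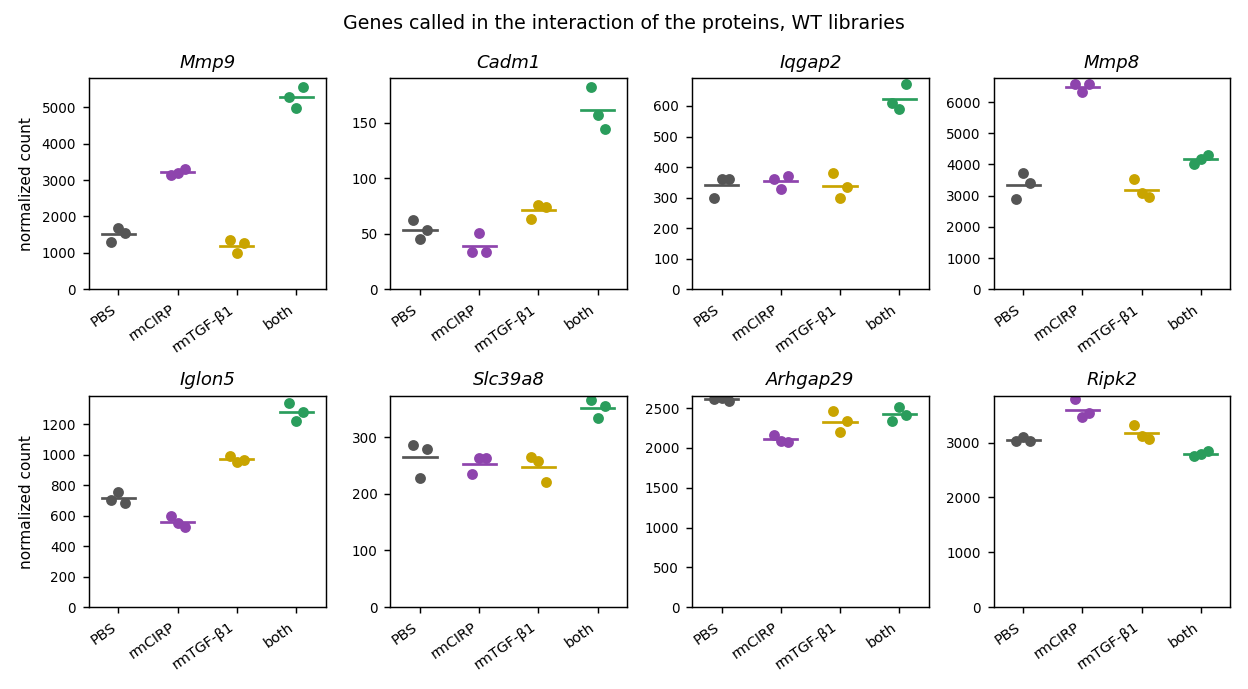
Normalized counts (y axis, linear from 0) of the 8 genes whose interaction of rmCIRP and rmTGF-β1 was called in WT fibroblasts, with PBS, rmCIRP, rmTGF-β1 or both (x axis); points are the 3 libraries and the line is their mean. In Mmp9, Cadm1, Iqgap2, Iglon5 and Slc39a8 the libraries with both proteins are above every other library, and in Ripk2 they are below.

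The question whether the joint state needs the receptor was addressed by the libraries labelled TLR4-/-, whose values are not part of the contrasts that chose the classes, although they entered the same model and so its filter, scaling and estimate of the spread. A model of the 12 WT libraries alone gave 1464 and 1256 genes that added up in the upward and downward directions, and 874 (rmCIRP higher) and 630 (rmTGF-β1 higher) that opposed each other. In the libraries labelled TLR4-/-, 2603 genes were higher with both proteins than with PBS (16%) and 2357 were lower (14.5%). Without replicate 3 of the combination, 1799 of 16512 genes were higher (10.9%) and 1577 lower (9.55%). The change differed from that in WT cells in 2969 genes (18.3%), or in 3806 without that library. Genotype could not be told apart from culture or from the sex of the pooled mice, since the libraries labelled TLR4-/- held 4543 to 5613 reads of Xist, which is expressed from the inactive X chromosome, and the 6 WT libraries at most 3. Reads of the Y-linked gene Ddx3y numbered 2212 to 2716 in the former and 3563 to 4177 in the latter, so the pools labelled TLR4-/- held transcripts of both genes.

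Of the 983 genes that added up in the upward direction in WT cells, 738 (75.1%) were also higher with both proteins in the libraries labelled TLR4-/-, and 670 (68.2%) without replicate 3. Of the 1130 in the downward class, 715 (63.3%) were lower, and 588 (52%) without it. The median changes of these classes were 0.2 and -0.2, against 0.373 and -0.496 in WT cells. A difference from WT was called in 360 (36.6%) of the 983 and 570 (50.4%) of the 1130, against 18.3% of all genes. Without replicate 3 these shares were 43.2% and 62.5%, against 23%. The classes were chosen in WT libraries, so these differences lean on that choice. In the libraries labelled TLR4-/-, Inhba rose by 1.24 ± 0.17 and Il11 by 1.95 ± 0.25. For neither was a difference from WT called (adjusted p = 0.4 and 0.54), although Inhba's was without replicate 3 (-0.58 ± 0.19, adjusted p = 0.036). Pdgfb rose by 0.70 ± 0.12, less than in WT cells (difference -1.96 ± 0.17, adjusted p = 1.4e-08, and -1.98 ± 0.18 without replicate 3).

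Among the opposed genes, more were called in the direction of the WT rmTGF-β1 effect than in that of the WT rmCIRP effect. Of the 671 with rmCIRP higher and rmTGF-β1 lower in WT cells, 30 were higher (4.47%) and 171 lower (25.5%), and 4 (0.596%) and 211 (31.4%) without replicate 3. Of the 450 with the reverse pattern, 136 were higher (30.2%) and 21 lower (4.67%), and 163 (36.2%) and 3 (0.667%) without it. Ptx3 fell from a mean of 1279 to 373, by -1.79 ± 0.19 on the log2 scale (adjusted p = 1.5e-06), where no change was called in WT cells (difference -1.90 ± 0.25, adjusted p = 6.5e-06). Eln had a mean of 479 with PBS and 778 after both, a change of 0.71 ± 0.27 (adjusted p = 0.067) that was 1.05 ± 0.20 (adjusted p = 0.001) without replicate 3. Mmp9 read a mean of 2926 with PBS and 2613 after both, a change of -0.16 ± 0.095 that was not called (adjusted p = 0.24), and the difference from WT was -1.96 ± 0.14 (adjusted p = 4.1e-10). Wnt2 and Bmp4, the rmTGF-β1 followers, changed by 1.51 ± 0.19 and -1.04 ± 0.12 there, and no difference from WT was called for either (adjusted p = 0.44 and 0.71).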

How the data were processed

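RNA was sequenced from cultured pulmonary fibroblasts in 24 libraries, 3 for each of 8 conditions, grouped by their labels. The authors prepared stranded total RNA libraries, sequenced them on a NextSeq 550, aligned reads with STAR2 to a mouse GENCODE reference and deposited raw, unnormalized read counts for each gene symbol, made with ht-seq. The submitters' processing notes name NCBIM37, FastQC and HTSeq. Which annotation release and which strand setting were used is not given in the sources used here, so genes that overlap on opposite strands may share reads. The 5 tally lines of each file, equal to 14.5 to 16.1% of all counts in the file, tally lines included, were left out.

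Counts were analysed in R 4.3.3 with edgeR 4.0.16. Of 34285 genes with a count, 16258 passed filterByExpr. A single model holding 8 condition means was fitted to all 24 libraries after TMM normalization (common biological coefficient of variation 0.0571), each contrast was given a quasi-likelihood F-test, and p-values were adjusted over all genes by Benjamini-Hochberg, with a threshold of 0.1 as in the study. SE is the size of the log2 change divided by the square root of F. Normalized counts are counts divided by median-of-ratios size factors and describe levels only. A group with at most 3 counts in every library gives a lower bound. Depth lay between 29853346 and 39664606 reads on genes per library. The scripts were tested on simulated data with known changes.

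Genes were named by rule: the 12 largest rises and falls averaging 50 or more normalized counts and without overlap between groups, for each of 4 classes the 8 genes with the largest smaller average effect, all genes with a called interaction, and members of gene lists. The members and lists were chosen with earlier results of these data known. The alternatives were DESeq2 1.42.0, RLE normalization, no filter on low counts, a mean count of at least 10, fewer libraries in the fit, classes from single-protein comparisons, effects of at least 0.5, a replicate block, and leaving out each library in turn. Promoters came from RefSeq (GRCm38.p6) and were used by gene symbol only. Chromosome 18 was not searched. The replicate numbers were not taken to pair libraries: the correlation of deviations of same-numbered WT PBS and WT both libraries was 0.0017, -0.054 and 0.034.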

Additional observations from a re-analysis of the deposited data

Results flagged for a closer look

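The change with both proteins against PBS differed between the libraries labelled TLR4-/- and WT libraries in 2969 genes, or 18.3% of those tested (edgeR's test of the difference, adjusted p under 0.1). Of 58 named genes with more than 3 counts in some WT PBS library, 37 differed. All 37 were also called without TLR4-/- label replicate 3 of both proteins. Others were called only without it, among them Bmp2 (-1.43, adjusted p = 0.029), Tnfaip6 (-1.3, adjusted p = 0.019) and Peg3 (0.724, adjusted p = 0.0016). The named genes were chosen for their changes in WT cells, so both their share and the direction of the differences lean on that choice. The values that follow include replicate 3, and some moved without it, such as Eps8 (1.71 to 1.35) and Cxcl5 (-2.41 to -2.95). On the log2 scale, the libraries labelled TLR4-/- minus WT gave -9.63 for Il1b, -8.38 for Ccl5, -6.21 for Il1a, -9 for Cxcl10, -6.7 for Nos2, -8.37 for Ifit3b, -8.48 for Rsad2, -5.77 for Ifi205, -7.94 for Ifit3, -1 for Kcnh1, -1.17 for Tfpi2, -1.33 for D630003M21Rik, -1.9 for Ptx3, -2.41 for Cxcl5, -2.21 for Ccl20, -1.2 for Cadm1, -0.92 for Iqgap2, -0.33 for Mmp8, -1.96 for Mmp9 and -0.33 for Slc39a8. The difference was positive, so that the change was less negative or more positive than in WT, in Rab3il1 (3.24), Cd300lb (2.5), Cobl (1.38), Afap1l2 (0.98), Scel (1.03), Cd300a (2.59), Bc1 (2.15), Alox5 (1.96), Gm41505 (1.19), Dhrs3 (1.6), Sorbs2 (0.59), Rcan2 (0.7), Eps8 (1.71), Meox2 (1.06), Tdrkh (0.82), Gjb5 (0.49) and Gm10824 (0.97). Culture and the sex of the pooled mice cannot be told apart from genotype in these differences.

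Within WT cells, the response to rmCIRP differed with and without rmTGF-β1 in the 8 genes of the called interaction (edgeR), at 0.37 log2 for Arhgap29, 1.62 log2 for Cadm1, 0.76 log2 for Iglon5, 0.83 log2 for Iqgap2, -0.57 log2 for Mmp8, 1.04 log2 for Mmp9, -0.42 log2 for Ripk2 and 0.57 log2 for Slc39a8. Only Mmp9 and Iqgap2 kept this call in each of the 12 fits without 1 WT library.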

How the results depend on the processing

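The count of genes called for both proteins against PBS in WT cells was 8681, ranged from 7808 (without WT both replicate 3) to 8111 (without WT PBS replicate 2) on leaving out 1 library, and from 7916 to 9138 under the other alternatives. The interaction depended most on the processing: 8 genes became 37 with DESeq2, 198 with no filter on low counts and 125 with only the 12 WT libraries in the fit, and 2 to 7 on leaving out 1 library, with 2 without WT rmCIRP replicate 3. The cause was not tested. Classes read from the single-protein comparisons with PBS, which have a larger error and fewer libraries, held 362 genes (add up, higher), 486 (add up, lower), 230 (rmCIRP higher, rmTGF-β1 lower) and 168 (the reverse), and with both average effects at 0.5 or more they held 96, 71, 93 and 47. A replicate block in the model gave 3994 higher and 4730 lower genes for both proteins against PBS and 11 for the interaction. The block changed no count by more than 1.5 times. The share of higher genes among those called was 45.8% in the main model, 47.8% with RLE and 48.5% with DESeq2. For the 185 genes examined, 401 results and 6383 alternative values were computed, of which 205 lost the call and none changed direction. Depth limits the genes with few reads: 16258 of 34285 genes with a count were tested.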
